A study of Oncorhynchus kisutch with 82 samples.

Results

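The 150 array probes described here had their highest log ratios in gill of river smolts and low ones in gill of fish caught at sea. They were picked from 43236 probes by their own values on the 68 arrays whose log ratios had a standard deviation (SD) of at most 1.3, called narrow arrays here. A probe was eligible when at least 60% of the narrow arrays of each year gave a value in river smolts, in ocean summer fish and in ocean fall fish, which 20368 probes met. Its score was the lower of the smolt medians of 2008 and 2009 minus the highest of the summer and fall medians of those years. The score was above 0 for 3590 eligible probes, and the 150 highest were kept. River against sea on the narrow arrays is therefore the choice itself and is given as a description with no test.

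The gill of a salmon handles both gas and salt. Its ionocytes take up ions in fresh water and secrete them in sea water, and during smoltification, while the fish is still in the river, the gill exchanges part of its ion pumps and channels for those used at sea. Gill is also a barrier tissue with epithelial, vascular, blood and immune cells, so whole gill RNA sums over many cell types. In such bulk RNA, fewer cells of a type and less RNA per cell cannot be told apart. The probes are named by their array IDs only, because the files pair none of them with a gene. No gene function, cell marker or sequence could be attached to them, and the gill identity of the samples was not checked against markers.

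Each of the 82 arrays set gill RNA of 1 coho salmon (Oncorhynchus kisutch) against a pool of gill RNA, with the dye of the fish and that of the pool never swapped. The river smolts of 2008 came from the Chilliwack, with 8 hatchery and 7 wild fish, and those of 2009 were 8 hatchery fish from the Chehalis and 4 wild fish from the Salmon River, labelled as Fraser stock. At sea there were 4 wild spring fish of 2009, 22 summer fish, 27 fall fish and 2 winter fish of 2009, the summer and fall fish coming from both years and origins. Summer fish and all fall fish but 1 were caught in areas that the labels mark as SoG, and were mostly of Fraser or Chilliwack stock. They were longer than the smolts on average. On narrow arrays the 20 smolts had a mean fork length of 10.7 cm with an SD of 2.0, the 17 summer fish 17.0 cm with an SD of 2.06, and the 25 fall fish 25.1 cm with an SD of 1.70. The winter fish were hatchery fish labelled Puget Sound. River, stock and year go together in the smolts and cannot be told apart there.

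The remaining 14 arrays had an SD above 1.3 and are called wide arrays. They held 7 Chilliwack smolts of 2008, 5 fish of the summer of 2009, and a fall fish from 2008 and from 2009. Among the 20 narrow smolts, Chilliwack hatchery fish 1 stood apart, with an array SD of 1.19 and a median over the members of -0.39 where the next lowest smolt had 0.27. The choice of members, the full separation and the tests among smolts that include it are also given without it. The correlations between members and the SDs over smolts were computed only with it. "Higher" and "lower" below refer to the deposited log ratio, whose direction and base the labels do not state. Differences are called log2 units on that assumption, and a size in fold holds only if it is right.

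The scores ran from 0.69 to 4.49 log2 units with a median of 0.97, against a median of -0.36 over all eligible probes. That range would be 1.62 to 22.5-fold. A score above 1 was reached by 70 members and a score above 2 by 20. Both smolt medians lay above 0 for 120 members, every sea median lay below 0 for 122, and both held for 92. The smolt median was higher in 2008 than in 2009 for 118 members. The highest sea median was a fall median for 104 members and a summer median for 46.

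C071R121 had the highest score. On narrow arrays its log ratio ran from -2.94 over a median of 0.95 to 2.95 in 20 smolts, from -6.40 over -4.87 to -3.03 in 16 summer fish, and from -5.36 over -3.76 to -1.20 in 24 fall fish. Smolts and sea fish overlapped through fish 1, which gave the lowest smolt value. C240R152 ran from 0.79 over 1.91 to 3.52 in 20 smolts, from -3.01 over -1.77 to -0.50 in 13 summer fish, and from -3.83 over -2.10 to -0.57 in 19 fall fish. Its groups did not overlap, but 10 of the 42 sea arrays gave no value for it. C082R022 ran from -2.67 over -0.19 to 0.96 in smolts, from -5.50 over -3.78 to -2.38 in summer and from -5.32 over -4.07 to -3.0 in fall. Its log ratios were near 0 in most smolts and far below 0 at sea.

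The other members among the 12 of highest score were C081R086, C217R121, C177R026, C203R148, C031R027, C211R137, C044R006, C126R068 and C076R016. Their scores fell from 2.90 for C081R086 to 2.37 for C076R016. Of these, C203R148 was the highest in the river, with a smolt median of 2.11, a summer median of -1.0 and a fall median of -0.77. C203R148 and C126R068 reached highest at sea, with a fall fish each at 1.12 and 1.01, within the range of the smolts. At the threshold the step was small. The last members were C209R096, C219R151 and C035R128, with scores of 0.70, 0.70 and 0.69, and the next probes, C044R129, C169R035 and C173R071, all had 0.69.

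Full separation of the fish was rare. In 7 members every narrow smolt with a value lay above every narrow summer and fall fish, and these were the same 7 that did so among all 20368 eligible probes, or 0.0344%. Since the choice used these values, nothing is read from that count. The 7 were C240R152, C044R006, C036R019, C243R143, C077R011, C066R125 and C133R134. Without fish 1 the number was 16, again all members, or 0.0786% of the eligible probes. C243R143 had the highest lowest smolt of the 7, at 0.99, beside a highest sea fish at 0.96. For C133R134 the lowest smolt was at -0.22 and the highest sea fish at -0.54.

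Taken fish by fish, the median over the 150 members was between -0.39 and 1.24 in the narrow smolts, with a middle value of 0.63. It was between -1.16 and -0.36 in summer and between -1.33 and -0.43 in fall. Fish 1 was the only narrow smolt within the range of the sea fish. In the 8 narrow Chilliwack smolts of 2008 the middle value was 0.95, and in the 12 smolts of 2009 it was 0.49. The median over all probes of an array lay between -0.15 and 0.17.

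The same fish can be read within stocks and within slides. Over the Chilliwack stock alone, all 150 members had a higher mean in 8 smolts than in 5 fall fish of 2008, by a median over members of 1.66. Over the Fraser stock of 2009 all 150 had a higher mean in 12 smolts than in 9 summer fish, by a median of 1.28. The same held against 10 fall fish, by 1.06. Of the 31 slides, 11 held both narrow smolts and narrow summer or fall fish. On these the median difference over members ran from 0.95 to 1.95, and between 128 and 150 members were higher in the river. All these values come from the fish that chose the members. The members were spread over the array. When it was cut into 4 parts by its middle column and middle row, they numbered 44, 33, 38 and 35 beside 5228, 5114, 5086 and 4940 eligible probes.

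The wide arrays were not used in the choice and gave a test of the river and sea difference in other fish. Of the 150 members, 132 had enough values there. In limma's test over 14955 probes, 56 members were higher in the 7 wide smolts than in the 7 wide sea fish at an adjusted p below 0.05, and 2 were lower. Over all probes of that fit, 26.7% had a positive call and 15.1% a negative one, 41.8% together, and the corresponding shares of the members were 42.4% and 1.52%. The difference was positive for 106 of the 132, with a median of 0.81 against 0.23 over all probes tested. Of the 150 members, 32 had every wide smolt above every wide sea fish, where 10.7% of the eligible probes did. The wide sea fish were summer fish of 2009 but for 2 fall fish, and the wide smolts were all of 2008. Only 1 wide sea fish, fall fish 1012, was of 2008 and of Chilliwack stock like the smolts. Its member median of -0.41 was the lowest of the wide sea fish, where the wide smolts had 0.08 to 1.34. The 5 wide summer fish had -0.26 to 0.09 and the wide fall fish of 2009 had 0.15, which overlaps the lowest wide smolt. Fish 1012 was also the fall fish caught outside SoG, in the area labelled WCVI, and was 32.8 cm long. Stage, year and stock cannot be told apart in this test, and nothing is read from this single fish. The 18 members left out were short of values, 17 of them in the wide smolts. There 12.6% of all member values were empty against 0.87% in the narrow smolts. Over the eligible probes these shares were 27.2% and 3.15%.

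C172R094 had the largest difference in the wide arrays. Its log ratios were 1.87, 2.97, 2.38, 1.83, 2.40, 1.10 and 1.09 in the smolts and lay between -2.47 and -0.67 in the sea fish, without overlap. The means were 1.95 ± 0.69 (SD, n = 7) and -1.74 ± 0.60 (SD, n = 7), a difference of 3.69 with a standard error (SE) of 0.34 and limma's adjusted p of 5.9e-07. C182R071 lay between -2.85 and -0.09 in the smolts and between -6.35 and -4.89 in the sea fish. It differed by 3.61 (SE 0.39, adjusted p = 3.0e-06 in limma), although the smolts themselves were all below 0.

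Of the 25 members with the highest scores, 22 were tested in the wide arrays and 16 were called higher in smolts. Over all probes of that fit, 26.7% had a positive call. The 16 include 9 members that varied together, described below, so these calls are not independent of one another. C071R121, first by score, had 0.30, -1.14, -1.99, -0.57, -0.19, -1.08 and 1.81 in the wide smolts and between -3.68 and -1.04 in the wide sea fish. These ranges overlapped, and the difference was 1.76 (SE 0.51, adjusted p = 0.010 in limma), smaller than its score of 4.49. C217R121 differed by 2.90 (SE 0.42, adjusted p = 5.0e-05 in limma), close to its score of 2.81. C203R148, C044R006 and C076R016 had differences of 1.00, 0.89 and 1.00 that were not called, with adjusted p of 0.11, 0.12 and 0.082 in limma.

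The 2 members called lower in the wide smolts were C032R009 and C168R030. C032R009 had between -0.28 and 0.70 in the wide smolts and between 0.43 and 1.69 in the wide sea fish, a difference of -0.98 (SE 0.27, adjusted p = 0.0074 in limma). On narrow arrays the same probe had a median of 0.59 in smolts and -0.72 at sea. C168R030 differed by -0.90 (SE 0.35, adjusted p = 0.044 in limma), and its adjusted p lay between 0.050 and 0.089 in 9 of the alternatives tried.

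The members did not vary as 1 block. The mean of each stage and year was first taken from the values. The correlation between members over the narrow fish then had a median of 0.21 over 11175 pairs of members, and 19.7% of the pairs were below 0. Among every 40th eligible probe the median was 0.0063 and 49.2% of pairs were below 0. These correlations share arrays, so array effects enter all of them, and they are a description. They include fish 1 and were not computed without it. They reached 0.8 in 45 pairs of members, or 0.403%, which joined 23 members into 6 sets. Among every 40th eligible probe 0.223% of 129795 pairs reached 0.8, and the highest correlation was 0.96. The highest among members was 0.95 between C081R086 and C168R108 over 67 fish. It was 0.95 between C081R086 and C211R137, 0.94 between C177R026 and C099R058, and 0.93 for C168R108 and for C031R027 with C099R058. The lowest, -0.63, was between C134R079 and C099R024.

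The largest set held 9 members, C081R086, C177R026, C031R027, C211R137, C126R068, C249R098, C168R108, C182R071 and C099R058, all among the 25 highest scores. Their columns on the array ran from 31 to 249. The median of the 9 ran from -1.52 over 0.96 to 2.06 in narrow smolts and from -3.63 over -2.13 to 0.29 in narrow summer and fall fish. Fall fish 3188 was the highest at sea, and fish 1 and fish 6, both Chilliwack hatchery fish, were the lowest smolts. On wide arrays the set and the members outside any set parted. The set had a median between -2.39 and -0.23 in the wide smolts and between -4.95 and -2.44 in the wide sea fish, while the 127 members outside any set had medians from 0.13 to 1.41 and from -0.21 to 0.29. All 9 were called higher in the wide smolts, by 2.55 to 3.61, with adjusted p of at most 2.8e-04 in limma. A positive call was made for 26.7% of all probes in that fit. Since the 9 varied together, their calls are not independent of one another.

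Another set, C081R121, C133R140, C176R119 and C027R055, varied most among smolts. Its median ran from -4.66 over -0.82 to 3.05 in narrow smolts and stayed between -4.74 and -1.46 at sea. C176R119, C081R121 and C133R140 had the largest SD over smolts of all members, up to 2.40, where the member median was 0.63 and that of eligible probes 0.49. At the other end, C053R115, C139R127 and C101R005 had the smallest SD, from 0.25. C139R127 lay between 0.72 and 1.92 in all 20 narrow smolts and between -1.34 and 1.00 at sea. With fish 1 included, the SD was larger in smolts than at sea for 107 members. Its median over members was 0.633 in smolts and 0.563 at sea, beside 0.492 and 0.487 over eligible probes. A further set, C203R148, C034R137, C012R093 and C093R028, had a median from -0.55 over 1.62 to 2.76 in narrow smolts and from -1.79 over -0.96 to 0.96 at sea. The remaining sets were pairs, C044R006 with C036R019, C048R153 with C179R028, and C248R058 with C227R072.

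The spring and winter fish had no part in the choice, but the smolts and the summer and fall fish they are set beside did. In the 4 spring fish, labelled as caught at sea and averaging 11.5 ± 1.37 cm (SD, n = 4), the member median was -0.48, -1.02, -0.52 and -0.37 in fish 2133, 2134, 2247 and 2248. All lay within the range of the narrow summer and fall fish and below every narrow smolt but fish 1. The spring median was at or below the highest sea median for 76 members, and for 56 it lay above it but nearer to it than to the lower smolt median. For 16 it was nearer the smolt median, and for 2 at or above it. In 31 members all narrow smolts lay above all spring fish, as did 0.948% of eligible probes. Nothing is read from that count, because the smolt values in it chose the members. All 4 spring fish were wild and of 2009. The 4 wild Salmon River smolts of 2009 had member medians from 0.30 to 0.46, above all 4 spring fish. These smolts helped to choose the members, and stage among wild fish alone was not tested.

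By the same placement, the spring median stood highest for C110R045, C157R145 and C025R167. The spring values of C025R167 were 0.73, 0.47, 0.38 and 0.07, where the 20 narrow smolts had a median of 0.44 and the 42 sea fish one of -0.72. C157R145 had -0.23, -1.46, 0.24 and -0.47, and C110R045 had -1.76, 0.96 and 0.31 in the 3 fish with a value. In these 2 members the fish differed from one another by over 1 unit. At the low end stood C231R155, C009R056 and C140R012. C009R056 had -0.49, -0.52, -0.62 and -0.80 in spring, below its sea median of -0.21, and C140R012 had -0.74, -1.62, -1.16 and -1.31 beside a sea median of -0.80. C231R155 had only -1.29 and -3.45. Of the highest scores, C071R121 had -2.74, -5.15, -2.15 and -0.72 in spring, and C082R022 had -2.96, -3.14, -2.91 and -4.18.

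The 2 winter fish had member medians of -0.94 and -1.26. Of the 149 members with a winter value, 124 lay at or below the highest sea median, 21 above it but nearer to it, 2 nearer the lower smolt median and 2 at or above that. All narrow smolts lay above the winter fish in 79 members, beside 7.34% of eligible probes, and again the smolt values in that count chose the members. Placed between the highest sea median and the lower smolt median, the winter median stood highest for C035R128, C134R079 and C006R085. C006R085 had -0.05 and 1.18 in winter beside medians of 1.36 in narrow smolts and -0.53 at sea. C134R079 had -0.04 and 0.13 beside 0.07 and -1.60, and C035R128 had -0.98 and 0.58 beside -0.26 and -1.46. At the low end, C074R013 and C202R020 had a single winter value each, -2.43 and -3.44, and C243R063 had -2.25 and -0.15. Winter minus spring was taken from a fit over all 68 narrow arrays, with the other stages, year and origin as covariates. It was not called for any of the 118 members tested. The origin term and most of the residual spread in that fit come from the smolts and the summer and fall fish, which chose the members. The winter fish were hatchery fish of Puget Sound stock, and the spring fish were wild fish of other stocks from another area. Stage, origin, stock and area therefore cannot be told apart in this comparison. In that limma fit 0.0579% of 18994 probes were called, and an unadjusted p below 0.05 was reached by 838 probes and 22 members. The members' median difference was -0.45 against -0.05 over all probes.

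Within the sea, fall and summer fish were compared on narrow arrays with year and origin as covariates. Limma called 5 of 150 members, 3 higher and 2 lower in fall, where 2.11% of all 23565 probes were called. The share of members, 3.33%, was near that background. C006R085 ran from -1.84 over -1.04 to -0.02 in 17 summer fish and from -1.11 over -0.27 to 0.57 in 25 fall fish. The ranges overlapped, and fall was higher by 0.82 (SE 0.14, adjusted p = 0.0013 in limma). C066R114 was higher in fall by 0.69 (SE 0.18, adjusted p = 0.032 in limma), and C134R079 was the third of that direction. C163R036 ran from -1.70 over -1.15 to 0.40 in summer and from -2.98 over -1.87 to -0.89 in fall, a difference of -0.82 (SE 0.17, adjusted p = 0.0050 in limma). C200R148 differed by -0.74 (SE 0.20, adjusted p = 0.037 in limma). With slide as a fixed block no member and no probe was called. With quantile normalization 15 members were called, all higher in fall. That share of 10.0% stood beside 2.16% of all probes in the same fit, and was not near the background. The rule fixes no direction between summer and fall, but the values of these fish helped to choose the members. Nothing is therefore read from these shares.

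Year, origin, sex and stock were compared at sea on narrow arrays, in fish that helped to choose the members. Limma called 1 member, C066R114, between the years, where 2.74% of 23427 probes were called, 1.2% with a positive and 1.55% with a negative difference. Its values ran from -2.45 over -0.92 to 0.85 in 2008 and from -1.56 over -0.21 to 0.56 in 2009, and 2009 was higher by 0.65 (SE 0.18, adjusted p = 0.046 in limma). It was not called with quantile normalization, with slide as a block or with array position as a covariate, where the adjusted p ran from 0.052 to 0.88. Hatchery minus wild, female minus male, and Chilliwack minus Fraser stock in 6 and 17 fall fish gave no call among members or among all probes, a background of 0%. An unadjusted p below 0.05 was reached by 428, 897 and 473 probes and by 3, 18 and 4 members in these limma fits. Fork length among the 42 narrow sea fish also gave no call, with 1411 probes and 8 members at an unadjusted p below 0.05. A sex of male or female was labelled for 40 of these fish.

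Among the narrow smolts of 2009, 8 Chehalis hatchery fish were compared with 4 wild Salmon River fish, so origin and river cannot be told apart. Limma called 16 of 150 members, 11 higher in the Chehalis fish and 5 lower. The share of 10.7% was near the 11.2% over all 23171 probes, 5.6% of which were higher and 5.58% lower. The members' median difference was 0.18 against -0.036 over all probes. The same smolts, 8 of them hatchery fish, set the 2009 median that helped to choose the members. A choice for a high median can itself favour higher values in the hatchery fish, so nothing is read from the split or the shift. C266R084 had 1.22, 2.75, 1.49, 1.70, 1.74 and -0.86 in 6 Chehalis fish and -0.77, -0.41 and -2.71 in 3 Salmon River fish, with overlap through a single Chehalis fish. It was higher in the Chehalis fish by 2.64 (SE 0.67, adjusted p = 0.032 in limma). C248R058 had -1.38, 0.82, -1.42 and -0.80 in the Salmon River fish and between -0.03 and 1.47 in the Chehalis fish, a difference of 1.3 (SE 0.38, adjusted p = 0.042 in limma). C227R072, which varied with it, was also called, with a difference of 1.22.

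In the other direction, C019R156 had -0.63, -1.51, -0.99, -1.40, -0.55, -2.12, -1.3 and -0.84 in the Chehalis fish and 0.13, -0.49, 0.62 and 0.83 in the Salmon River fish. The groups did not overlap, and the difference was -1.44 (SE 0.30, adjusted p = 0.013 in limma). C013R081 lay between 1.78 and 2.63 in the Salmon River fish and between -0.83 and 2.28 in the Chehalis fish, a difference of -1.65 (SE 0.47, adjusted p = 0.038 in limma). C025R167, described above for the spring fish, was lower in the Chehalis fish, with a difference of -1.23 (SE 0.28, adjusted p = 0.019 in limma). Without Salmon River fish 1435, 1439 or 1441 the number called was 8, 9 and 7. These shares of 5.33%, 6.00% and 4.67% stood beside 6.28%, 3.11% and 6.85% of all probes in those fits. C013R081 was not called when any 1 of the 4 Salmon River fish was left out (adjusted p from 0.057 to 0.12 in limma) or with quantile normalization (0.10). C266R084 and C248R058 lost their calls under 4 alternatives each, with adjusted p up to 0.11 and 0.12 in limma, while C019R156 kept its call in all alternatives run.

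Among the 8 narrow Chilliwack smolts of 2008, limma called 1 member between 3 hatchery and 5 wild fish, where 0.0178% of 22466 probes were called, 0.0134% with a positive and 0.00445% with a negative difference. This was C076R016, with -0.78, -1.36 and -1.08 in the hatchery fish and 1.66, 1.87, 0.98, 1.01 and 1.65 in the wild fish. The groups did not overlap, and the difference was -2.51 (SE 0.30, adjusted p = 0.035 in limma). It was not called when any single wild fish (94, 96, 97, 99 or 101) was left out, with 0 members called in each case. It had an adjusted p of 0.067 over all arrays, where the 5 hatchery fish on wide arrays had 0.18, -0.64, -0.74, -0.06 and 0.99 and the 2 wild fish 1.23 and 2.19. The median difference of the members was -0.75 against 0.014 over all probes, and -0.48 without fish 1. Members with a negative difference numbered 120 of 150. The same 8 smolts, 5 of them wild, set the 2008 median that helped to choose the members. A choice for a high median can itself favour higher values in the wild fish, so nothing is read from this shift.

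Between the years, the narrow smolts were compared with origin as a covariate, 12 fish of 2009 against 8 of 2008. Limma called 15 members, all lower in 2009. The share of 10.0% lay below the 15.2% over all 23319 probes, of which 8.17% were called lower in 2009 and 7.08% higher. C081R121 ran from -0.57 over 0.59 to 3.23 in 7 smolts of 2008 and from -4.58 over -1.18 to 1.19 in 11 of 2009. The ranges overlapped, and 2009 was lower, with a difference of -3.06 (SE 0.74, adjusted p = 0.011 in limma). C027R055, of the same set, ran from -1.28 over 1.08 to 3.54 in 2008 and from -3.44 over -0.95 to 0.99 in 2009, a difference of -2.34 (SE 0.69, adjusted p = 0.026 in limma). That call was lost without fish 1, with a difference of -1.96 and an adjusted p of 0.064 in limma, and with quantile normalization, where the adjusted p was 0.050. Their set partners C176R119 and C133R140 had differences of -2.57 and -1.56 that were not called, with adjusted p of 0.056 and 0.21 in limma. Without fish 1 the number called was 28, again all lower in 2009, a share of 18.7% beside 16.4% of all probes in that fit. Of the 22665 probes of that fit, 1950 were called lower in 2009 and 1765 higher. Over all arrays it was 59, of which 40 were lower and 19 higher, a share of 39.3% beside 38.1% of all probes. River and stock change with year in these fish. The medians of these smolts in both years also helped to choose the members. A choice for a high median in each year can itself limit how far the years differ, so nothing is read from these shares.

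Fork length among the 20 narrow smolts gave no member call. In that limma fit 0.00858% of 23319 probes were called, and 3383 probes and 51 members had an unadjusted p below 0.05. The members' median slope was -0.099 per cm, against -0.0010 over all probes, and 28 members had a positive slope. Without Chilliwack hatchery fish 36, labelled as 5.0 cm long where the next shortest smolt measured 8.4 cm, the median slope was -0.050, 52 slopes were positive and 10 members had an unadjusted p below 0.05. Fish 36 also had the lowest labelled mass of the smolts. Whether its labelled length is right was not tested. Fish 36 had a member median of 0.95, and fish 1, the longest at 14.1 cm, had -0.39. Without fish 1 no member was called either, the median slope was -0.070 and 22 members had an unadjusted p below 0.05.

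The origin differences of 2008 and 2009 were set against each other in the narrow smolts by an interaction term, added after the data were seen. Limma called 7 members, where 0.863% of 21442 probes were called, and in all 7 hatchery minus wild was more positive in 2009 than in 2008. They were C217R121, C044R006, C076R016, C153R048, C034R137, C248R058 and C209R096. C217R121 ran from -1.04 over 1.14 to 1.20 in 3 Chilliwack hatchery fish and from 1.46 over 2.03 to 2.60 in 5 wild ones, and from 0.44 over 1.34 to 2.01 in the Chehalis hatchery fish and from 0.09 over 0.37 to 0.82 in the wild Salmon River fish. Without fish 1 the number was 2, beside 0.975% of 19800 probes. The smolt medians that chose the members came from 3 hatchery and 5 wild fish in 2008. In 2009 they came from 8 hatchery and 4 wild fish. Such a choice can itself favour a more positive difference in 2009, so nothing is read from the count.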

How the data were processed

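The authors deposited, per array, a log ratio for each spot, which is used here as a log2 value. The scanner, background correction, normalization, log base and ratio direction were not given in the sources used here. Per the labels, the dyes ran the same way on every array and the pool was made from all samples of the tissue. The deposited values were not renormalized: array medians lay between -0.151 and 0.167. The 60 control spots were left out, 45.6% of probe values were empty, and none was filled in. Between 12606 and 31972 probes had a value on an array. The number of arrays limits the precision. The deposited series table, also taken as log2, held the same values but lacked 17574 of 1 array, and was an alternative.

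Each fish is 1 sample, grouped by the season, year, origin, river or area and stock in the labels. The members and the list of tests were chosen with earlier results of these data known. Tests were fitted per probe over the whole table with the two-sided moderated test of limma 3.58.1 (lmFit, then eBayes), run in R 4.3.3. Benjamini-Hochberg adjustment was made within each of 12 comparisons, and a call needs an adjusted p below 0.05. Values were needed in at least 50% of the fish and in at least 2 in each group. Comparisons other than that of the wide arrays used the narrow arrays. The fits were tested on simulated data. Members named in the text are the 12 of highest score, those at the threshold, the 2 largest differences per direction among members called in a comparison, the spring, winter and spread extremes (3 each way) and the 5 most correlated pairs. Others named were chosen after their values were seen. The alternatives were centred arrays, quantile normalization, values of the series table, stricter filters, array sets, slide blocks, array position and leaving out fish. Leaving out fish 1 and the interaction test were added after the data were seen.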

Additional observations from a re-analysis of the deposited data

Results flagged for a closer look

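In groups of 4 to 10 fish, 101 sets of values (the member median and the 12 members of highest score) were searched for a fish far from the others, and 4 held one. Chance would mark about 1 group in 20. Among the narrow smolts of 2008, fish 1 had -1.04 for C217R121, where the next lowest smolt had 1.14. The member median of fish 1 was searched in that group as well and was not marked. Among the spring fish, fish 2134 had -3.10 for C126R068, where the next had -1.61. Among the narrow summer fish of 2009, fish 2786 had -1.53 for C031R027, above the next at -2.14. Among the wide summer fish, fish 2857 had -3.06 for C082R022, below the next at -1.21.

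In 7 members the hatchery minus wild difference of smolts was more positive in 2009 than in 2008 by limma's interaction test. Of all 21442 probes, 0.863% were called in that fit. Without fish 1 the calls fell to 2 members, beside 193 of 19800 probes. The difference between the years was 3.03 for C248R058, 2.79 for C076R016, 2.39 for C217R121, 2.25 for C044R006, 1.96 for C034R137, 1.73 for C153R048 and 1.51 for C209R096, with adjusted p between 0.018 and 0.048. For C076R016 the means were 0.45 in hatchery and 0.17 in wild smolts of 2009, and -1.07 and 1.43 in those of 2008. The smolts of 2009 came from a different river for each origin, so river and origin cannot be told apart in that year. The smolt medians that chose the members came mostly from wild fish in 2008 and from hatchery fish in 2009. That choice can itself favour a more positive difference in 2009, so nothing is read from the count.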

How the results depend on the processing

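Other settings changed the choice of members to differing degrees. Using all arrays kept 115 of the 150, quantile normalization 129, a filter of 80% of values 132, values of the series table kept 145, centring 150, and leaving out fish 1 143. Without fish 1 the members with every smolt above every sea fish numbered 16 in place of 7. In the wide arrays the members called stayed between 48 and 62, and between 51 and 58 when 1 sea fish was left out. Over all probes, 35.4% to 47.0% were called in these fits, and 36.3% to 44.7% when 1 sea fish was left out. For fall against summer, 5 calls became 15 with quantile normalization (10.0% of members, where 2.16% of all probes were called). They became 0 with slide as a fixed block, where no probe was called. For the years at sea, 1 call became 22 over all arrays (14.7% of members, where 15.1% of all probes were called) and 0 with quantile normalization, slide as a random or fixed block, or array position. For origin in 2009, 16 calls became 10 with values in 80% of fish (6.85%, beside 7.53% of all probes). They became 7 to 11 without 1 fish (4.67% to 7.33%, beside 3.11% to 7.55%). For origin in 2008, 1 call became 2 with the series table (1.35%, beside 0.234% of all probes) and 0 with values in 80% of fish. It became 3 without the 5.0 cm smolt (2.04%, beside 0.40%), and 0 to 3 without 1 fish. For the years in smolts, 15 calls became 59 over all arrays (39.3%, beside 38.1% of all probes) and 28 without fish 1 (18.7%, beside 16.4%). All 28 were lower in 2009, where 1950 of 22665 probes were called lower. For fork length in smolts, 0 became 9 with the series table, all negative (6.00%, beside 2.11% of all probes). The added interaction test gave 8 over all arrays (5.52%, beside 1.15% of all probes) in place of 7. It gave 2 without fish 1 (1.38%, beside 0.975%). The cause of these changes was not tested. The comparisons of winter with spring, and of origin, sex, stock and fork length at sea, called 0 members under each alternative run. Of 161 values of named members under alternatives, 119 kept their call, 42 lost it and 0 changed sign. Some alternatives could not change a call and are counted as kept. The series table gave the same fit for the wide arrays, fall against summer, the years at sea and origin in 2009. Using all arrays also left origin in 2009 unchanged, because those smolts were all on narrow arrays. No paired analysis was possible because each array held a different fish and replicate numbers follow accession order only. Leaving out single fish was not run for the stock comparison, with groups of 6 and 17 fish.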

Other observations

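Members were seldom neighbours on the array: 10 of the 150 had another member at most 2 columns and 2 rows away. In the spring fish 6.00% of member values were empty, in the winter fish 11.0%, and in the narrow smolts 0.87%. Over the eligible probes these shares were 4.16%, 7.90% and 3.15%.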
